A study of Homo sapiens with 6 samples.

Results

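The Sprouty genes SPRY1, SPRY2 and SPRY4 and the SPRED genes SPRED1, SPRED2 and SPRED3 were chosen by name, as a family of feedback inhibitors of receptor tyrosine kinase signalling. These genes, and the gene lists set beside them below, were chosen with earlier results of these data known, so counts of their calls are descriptions. All 6 were present among the 16305 genes measured. The cells were Huh7SR, a pool derived from the human hepatoma line Huh7 by long exposure to sorafenib, the kinase inhibitor given in hepatocellular carcinoma. Polyadenylated RNA was sequenced from cells that had received either DMSO, the vehicle, or fostamatinib, a prodrug whose active form inhibits SYK and other kinases. The labels gave 24 h and 2 µM for both arms, DMSO included, and each arm had 3 libraries. According to the methods of the study, sorafenib was used to maintain the resistant cells and was taken away ahead of experiments, so all 6 libraries share that history. The comparison asked which transcripts differed after fostamatinib in resistant cells. A pool from 1 line limits what the values stand for. The labels gave triplicate treatments without saying whether the samples came from separate passages. The spread between these samples may therefore be partly technical. The limma p-values below rest on that spread pooled with the spread of other genes.

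Sprouty and SPRED proteins share a cysteine-rich C-terminal domain and restrain the route from receptor tyrosine kinases through RAS and RAF to ERK. Their transcription is raised when ERK is active, so that the pathway limits itself, and they are often read together with the DUSP phosphatases and the ETV factors as a transcript readout of ERK output. Sprouty proteins act through partners such as GRB2 and the ubiquitin ligase CBL, whereas SPRED proteins carry an EVH1 domain and bring the RAS GTPase-activating protein neurofibromin (NF1) to the membrane.

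The libraries held 13303451 to 15272737 reads on the listed genes, and levels are given as log2 CPM, the log2 of the reads of a gene in 1000000 after adjustment for library composition. Libraries of 1 treatment resembled each other more (Pearson r across all 16305 genes 0.988 in each of the 6 pairs within a treatment) than libraries of different treatments (0.970 to 0.972). Over the 12249 genes with more reads, every pair differed by more than counting noise (chi-square per degree of freedom at least 1.65). Genes were tested in limma with a mean-variance trend, which draws the variance of each gene towards that of genes of like level. The tests had 33.9 degrees of freedom, more than 6 libraries alone can give. A gene was called when its adjusted p was below 0.05, with Benjamini-Hochberg adjustment over all 16305 genes. By this rule 47.8% of all genes were called, 24.5% lower and 23.3% higher after fostamatinib, and the median log2 fold change over all genes was 0.0015. The hepatocyte and hepatoma transcripts checked were all present, and all 10 were called higher after fostamatinib, APOA1 by 3.19 ± 0.16 (SE), HNF4A by 1.02 ± 0.039 and FGB by 0.74 ± 0.034 on the log2 scale. Their summed level was 5045 to 5386 CPM in DMSO and 6849 to 7258 CPM after fostamatinib. Of 12 transcripts of fibroblasts, endothelial cells and leukocytes, 5 were measured and 3 called higher, PDGFRB by 0.95 ± 0.20, PECAM1 by 0.51 ± 0.12 and COL1A2 by 0.37 ± 0.042. The summed level of the 5 was 155 to 161 CPM against 201 to 210 CPM. Most of this sum was COL1A2, at a mean of 7.16 log2 CPM in DMSO and 7.53 after fostamatinib. PECAM1, the next highest, had 2.70 and 3.21. Others on the list, among them VWF, CDH5, KDR, PTPRC, CD68 and CD3E, were not analysed here. These marker levels moved with treatment, and their part in the results below was not tested. In bulk RNA, fewer cells of a type and less RNA per cell cannot be told apart.

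Fostamatinib-treated cells held less RNA of 5 of the 6 genes. SPRY4, SPRED1, SPRED2, SPRY1 and SPRY2 were called lower, against 24.5% of all genes, and SPRED3 was not called. SPRY4, SPRED1 and SPRED2 fell by more than 2-fold, which 3.29% of all genes did. In these 5 genes every fostamatinib library lay below every DMSO library, as in 27.4% of all genes. No member was called higher, by more than 2-fold (3.85% of all genes) or less, and none had every fostamatinib library above every DMSO library (26.8% of all genes). The median log2 fold change of the 6 was -0.94.

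**Figure D1:**
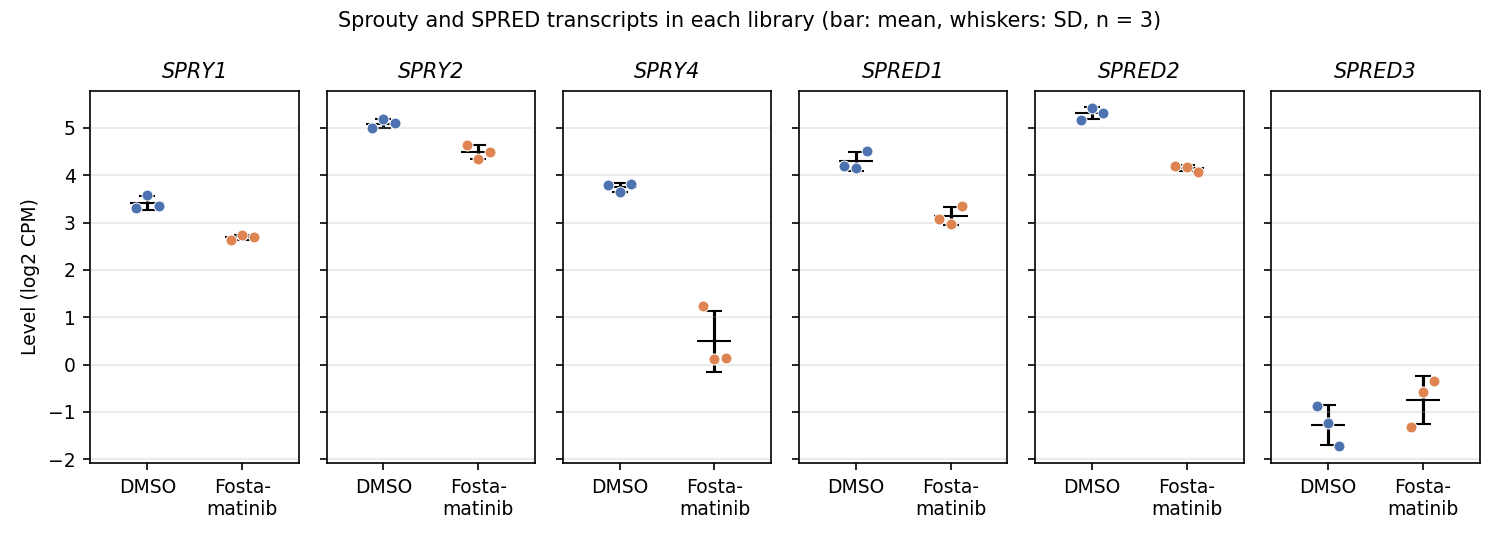
Level of each Sprouty and SPRED transcript in log2 CPM (vertical axis) in the 3 DMSO and the 3 fostamatinib libraries, 1 point a library, with the mean as a horizontal bar and the SD as whiskers. The groups separate for SPRY1, SPRY2, SPRY4, SPRED1 and SPRED2 and overlap for SPRED3, and SPRY4 dropped from a mean of 3.75 to 0.497.

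The 6 genes lie on separate chromosomes. On GRCh37, SPRY1 (ENSG00000164056) lies at chr4:124317950-124324915 on the + strand, SPRY2 (ENSG00000136158) at chr13:80910111-80915261 on the - strand and SPRY4 (ENSG00000187678) at chr5:141689992-141706020 on the - strand. SPRED1 (ENSG00000166068) lies at chr15:38545037-38649450 on the + strand, SPRED2 (ENSG00000198369) at chr2:65537985-65659771 on the - strand and SPRED3 (ENSG00000188766) at chr19:38879061-38890227 on the + strand. The 250 bases before the first listed start are printed for the 3 genes that fell by more than 2-fold and for SPRED3, which was not called, so that the upstream DNA of the genes that fell together can be read beside that of the one whose groups overlapped. They come from RefSeq promoters of GRCh38.p14, read 5′ to 3′ on the strand of the gene, at chr5:142324248-142324497 (-), chr15:38252586-38252835 (+), chr2:65432600-65432849 (-) and chr19:38389541-38389790 (+). Capitals mark the motif words found.
SPRY4: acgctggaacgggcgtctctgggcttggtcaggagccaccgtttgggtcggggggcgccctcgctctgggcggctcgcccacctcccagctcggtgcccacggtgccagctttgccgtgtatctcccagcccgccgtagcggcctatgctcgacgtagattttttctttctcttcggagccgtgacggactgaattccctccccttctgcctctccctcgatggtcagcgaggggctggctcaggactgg
SPRED1: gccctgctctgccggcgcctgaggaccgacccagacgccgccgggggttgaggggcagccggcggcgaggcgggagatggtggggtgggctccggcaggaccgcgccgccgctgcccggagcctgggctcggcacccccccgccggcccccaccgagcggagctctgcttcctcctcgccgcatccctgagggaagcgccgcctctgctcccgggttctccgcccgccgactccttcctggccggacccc
SPRED2: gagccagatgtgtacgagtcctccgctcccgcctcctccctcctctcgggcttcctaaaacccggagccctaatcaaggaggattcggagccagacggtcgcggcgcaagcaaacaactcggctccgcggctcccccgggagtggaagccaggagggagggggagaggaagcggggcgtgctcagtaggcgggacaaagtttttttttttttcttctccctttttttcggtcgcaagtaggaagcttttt
SPRED3: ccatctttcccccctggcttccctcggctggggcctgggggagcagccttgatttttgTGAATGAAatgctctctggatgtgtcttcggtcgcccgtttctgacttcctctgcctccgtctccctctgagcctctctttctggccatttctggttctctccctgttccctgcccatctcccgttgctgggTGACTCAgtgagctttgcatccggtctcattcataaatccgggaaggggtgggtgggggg

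Both strands of each promoter, from 250 bases before the start to 50 after it, were searched for 4 motifs of factors tied to ERK. The motifs were the octamer of the repressor CIC (TGAATGAA, TGAATGGA, TCAATGAA or TCAATGGA), an ETS site (CCGGAAGT), the AP-1 site (TGAGTCA or TGACTCA, which are each other's reverse complement) and the cyclic AMP response element (TGACGTCA). Among 35116 RefSeq promoters of that length, 3.77% held a CIC octamer, 4.14% the ETS site, 4.95% an AP-1 site and 1.85% the cyclic AMP response element. The table listed 11 promoters for the 6 genes, and 2 of them held a motif. The share of all promoters with any of the 4 motifs is not given here, so this count is not read as a trait of the family. The first SPRED3 promoter had a CIC octamer from -192 to -185 and an AP-1 site from -60 to -54, and the second SPRED2 promoter had an AP-1 site from -6 to 1, with 1 as the first transcribed base. None of these exact words was present in the listed windows of SPRY1, SPRY2, SPRY4 or SPRED1. The GC content of the printed stretches was 65.6% for SPRY4, 78.4% for SPRED1, 58.8% for SPRED2 and 58% for SPRED3, beside a median of 58% over all promoters.

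SPRY4, whose protein inhibits ERK activation downstream of growth factor receptors, showed the largest fall of the family. Its reads numbered 192, 190 and 208 in the DMSO libraries and 32, 15 and 14 in the fostamatinib libraries. Fostamatinib library 1 held more SPRY4 than the other two, yet remained far below the lowest DMSO library. In log2 CPM the mean went from 3.75 ± 0.096 to 0.497 ± 0.644 (SD, n = 3). The log2 fold change was -3.26 ± 0.21 (SE), with a 95% interval of -3.67 to -2.84 and an adjusted p of 1.47e-15 in limma. This SE was drawn towards that of other genes, and the intervals given here rest on it. Without the variance trend the SE was 0.33 and the limma adjusted p 0.00177. The level after fostamatinib was 10.5% of that in DMSO (7.84 to 14.0%), a 9.55-fold difference, and SPRY4 ranked 12 of 16305 genes when ordered from the lowest log2 fold change. Without fostamatinib library 1 the log2 fold change was -3.63. An exact permutation test of 3 against 3 libraries cannot give a p below 0.1, and it gave 0.1 for this gene as for the 4 others that were called.

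The span of SPRY4 overlaps SPRY4-AS1 (ENSG00000231185), a long noncoding RNA on the opposite strand at chr5:141704774-142051566 of GRCh37, whose annotated exons share 0 bases with those of SPRY4. SPRY4-AS1 had 13, 7 and 11 reads in DMSO and 0, 2 and 2 reads after fostamatinib. It thus passed the authors' filter of 5 reads in 2 samples only through DMSO, where it was higher. At its treated level only a fall could have been seen, so the interval and p-value below are no independent support for a fall. Summed over libraries these were 31 and 4 reads, a ratio of 7.28 after scaling for depth, with an exact 95% binomial interval of 2.58 to 28.4 that covers counting error only. Its log2 fold change was -2.76 ± 0.68 (SE; limma adjusted p = 8.82e-04), but at this depth the size depended on the reads added before the logarithm, being -1.84 with 2 reads added, and on fostamatinib library 1, being -1.98 without it. The library kit kept strand information, while the strand setting used in counting was not given in the sources used here, so reads from either strand cannot be assigned with certainty. The noncoding gene ENSG00000232693, which lies within the span of SPRED2, was not analysed here.

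SPRED1 and SPRED2, the adaptors through which neurofibromin reaches RAS at the membrane, fell by similar amounts from different levels. SPRED1 had 253, 273 and 340 reads in DMSO and 115, 112 and 134 reads after fostamatinib. SPRED2 had 497, 655 and 595 reads in DMSO and 252, 258 and 223 reads after fostamatinib. For both genes the highest treated library held fewer reads than the lowest control library. The mean level of SPRED1 went from 4.29 ± 0.195 to 3.13 ± 0.189 log2 CPM (SD, n = 3), a log2 fold change of -1.16 ± 0.11 (SE; limma adjusted p = 4.47e-11). The mean level of SPRED2 went from 5.31 ± 0.126 to 4.15 ± 0.066 log2 CPM (SD, n = 3), a log2 fold change of -1.16 ± 0.076 (SE; limma adjusted p = 4.25e-15). Treated cells thus held 44.7% of the DMSO level of SPRED1 (95% interval 38.3 to 52.1%) and 44.9% of that of SPRED2 (40.3 to 49.95%).

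SPRED3, which differs from the other SPRED proteins in its central kinase-binding region, was close to the limit of what these libraries could measure. It had 7, 6 and 4 reads in DMSO and 5, 9 and 10 reads after fostamatinib, and the groups overlapped. The log2 fold change was 0.53 ± 0.48 (SE), with a 95% interval of -0.44 to 1.504 and an adjusted p of 0.384 in limma, and the exact permutation p was 0.3. The summed reads, 17 in DMSO and 24 after fostamatinib, gave a DMSO to fostamatinib ratio of 0.666 with a counting interval of 0.336 to 1.29. The fitted interval did not reach -1.16, the log2 fold change of SPRED1 and SPRED2.

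SPRY1 and SPRY2, Sprouty proteins that are phosphorylated on a conserved tyrosine upon growth factor stimulation, fell least among the genes called. SPRY1 had 137, 183 and 151 reads in DMSO and 85, 95 and 85 reads after fostamatinib. SPRY2, the most abundant of the family per length of annotated exon, had 438, 556 and 508 reads in DMSO and 344, 288 and 297 reads after fostamatinib. Neither gene had a treated library as high as its lowest control library. The mean level of SPRY1 went from 3.42 ± 0.147 to 2.69 ± 0.054 log2 CPM (SD, n = 3), a log2 fold change of -0.73 ± 0.12 (SE; limma adjusted p = 5.39e-06). The mean level of SPRY2 went from 5.09 ± 0.098 to 4.49 ± 0.154 log2 CPM (SD, n = 3), a log2 fold change of -0.60 ± 0.078 (SE; limma adjusted p = 5.86e-08). These changes left 60.3% of the DMSO level of SPRY1 (95% interval 50.8 to 71.6%) and 65.9% of that of SPRY2 (59.0 to 73.6%).

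**Figure D2:**
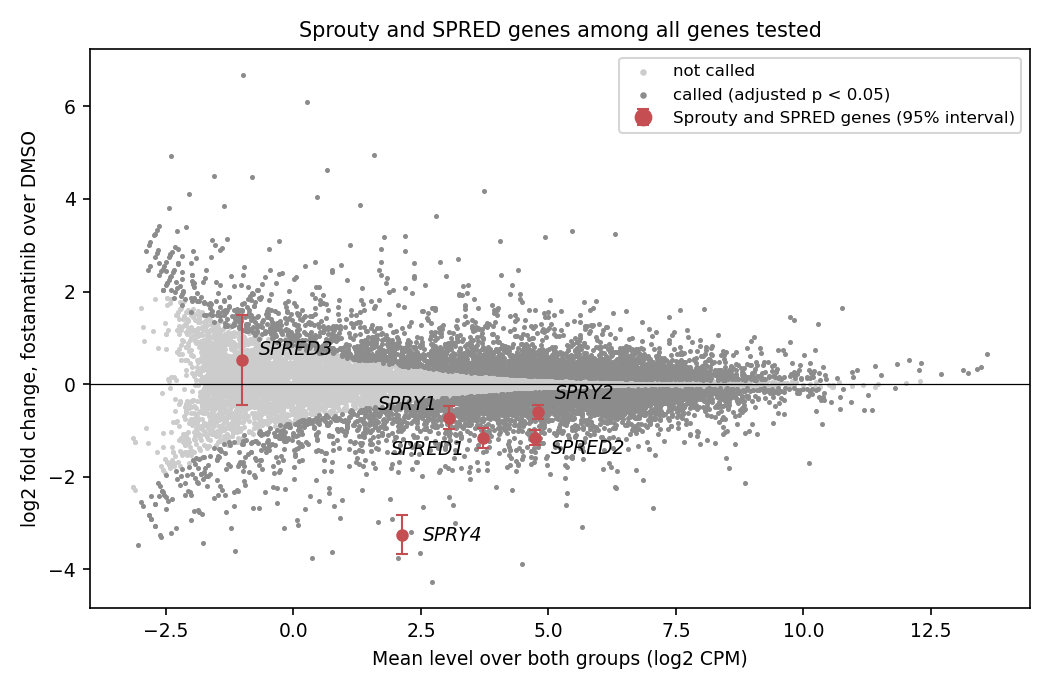
Log2 fold change of fostamatinib over DMSO (vertical axis) against the mean level over both groups in log2 CPM (horizontal axis) for 16305 genes, with genes called in dark grey and the Sprouty and SPRED genes in red with 95% intervals. SPRY4 lies apart at -3.26, SPRED1, SPRED2, SPRY1 and SPRY2 lie between -1.16 and -0.60, and the interval of SPRED3 spans 0.

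Whether members differed from one another was examined as the log2 difference between 2 genes within each library, compared between treatments for all 15 pairs. In 11 pairs the 3 differences in DMSO did not overlap the 3 after fostamatinib, the most that 3 against 3 libraries can show (exact permutation p = 0.1, lowest Benjamini-Hochberg value over the 15 pairs 0.136), so no pair could reach 0.05. Among all single genes, 27.4% were lower and 26.8% higher without overlap. The share for pairs of other genes was not computed, so the count of 11 is not read as a trait of the family. The groups did not overlap for any pair with SPRY4: its difference from SPRED2 changed by -2.10 ± 0.37 (SE), from SPRED1 by -2.09 ± 0.42, and the differences of SPRY1 and SPRY2 from SPRY4 changed by 2.53 ± 0.42 and 2.65 ± 0.32. The difference of SPRY2 from SPRED2 changed by 0.56 ± 0.093 and that from SPRED1 by 0.56 ± 0.18, in both cases without overlap and with the smaller fall in SPRY2. The difference between SPRED1 and SPRED2 changed by -0.0070 ± 0.197 with overlapping groups (exact permutation p = 1). That between SPRY1 and SPRY2 changed by -0.13 ± 0.13, also with overlapping groups (exact permutation p = 0.5). The remaining pairs with overlap were SPRY1 with SPRED1, at 0.43 ± 0.21, and SPRY2 with SPRED3, at -1.13 ± 0.46 (exact permutation p = 0.2 for each). These p-values do not show that the members of such a pair responded alike.

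Levels were compared between genes as CPM per kilobase of annotated exon. This length joined the exons of all annotated transcripts, in a later GENCODE release than the one used for counting. It may differ from the length of the transcripts present, and the SDs cover libraries only. In mean DMSO reads the order was another: SPRED2 582, SPRY2 501, SPRED1 289, SPRY4 197, SPRY1 157 and SPRED3 5.67. Per kilobase the order in DMSO was SPRY2 at 10.6 ± 0.723, SPRED2 at 7.21 ± 0.625, SPRY1 at 2.71 ± 0.284, SPRED1 at 2.55 ± 0.355, SPRY4 at 2.06 ± 0.134 and SPRED3 at 0.0724 ± 0.0206 CPM per kb (SD, n = 3). SPRY1 and SPRED1 overlapped, and the other neighbours did not. After fostamatinib the order per kilobase was unaltered, at 7.03 ± 0.748, 3.23 ± 0.146, 1.63 ± 0.0611, 1.14 ± 0.153, 0.231 ± 0.112 and 0.106 ± 0.0342 CPM per kb, and no neighbours overlapped. The last step, SPRY4 above SPRED3, rested there on 32, 15 and 14 against 5, 9 and 10 reads. At so few reads that step is uncertain.

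The level summed over the 6 genes was 23.6, 26.5 and 25.6 CPM per kb in DMSO and 14.2, 12.6 and 13.3 CPM per kb after fostamatinib. Leaving SPRY4 out, the sums were 21.4 to 24.6 and 12.4 to 13.8 CPM per kb, so the sum without SPRY4 was also lower in every fostamatinib library. SPRY2 made up 42.1 ± 0.683% of the sum in DMSO and 52.5 ± 2.40% after fostamatinib (SD, n = 3), the largest share in every library. The share of SPRED2 was 28.6 ± 0.842% and 24.2 ± 1.70%, and that of SPRY4 was 8.19 ± 0.932% and 1.70 ± 0.722%, both without overlap between the groups. The shares of SPRY1 (10.7 and 12.2%) and SPRED1 (10.1 and 8.52%) overlapped.

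**Figure D3:**
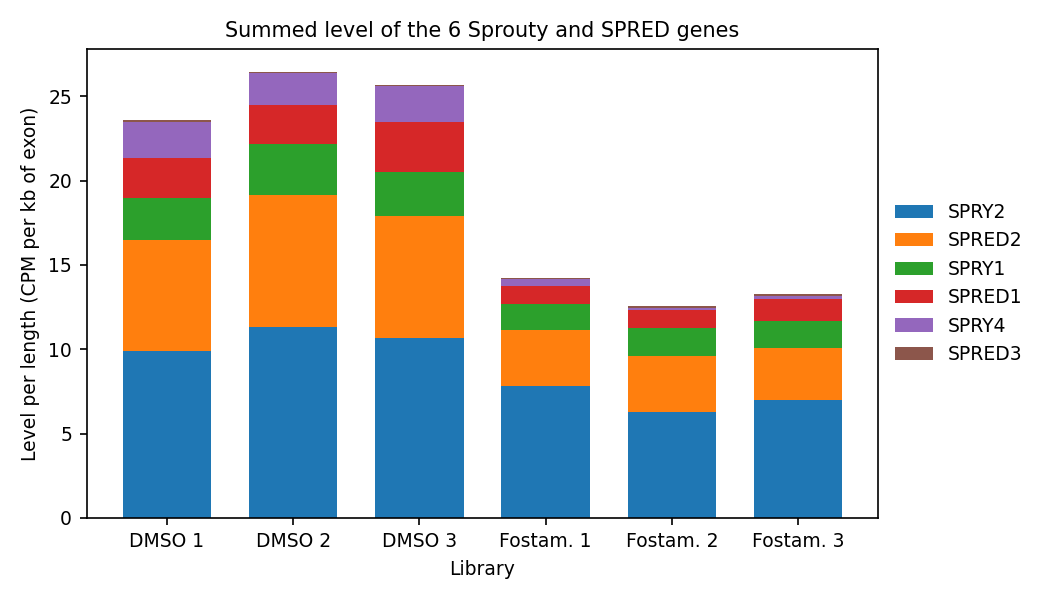
Level per exon length in CPM per kb (vertical axis), stacked over the 6 Sprouty and SPRED genes, for each of the 3 DMSO and 3 fostamatinib (Fostam.) libraries. The stacks reach 23.6 to 26.5 in DMSO and 12.6 to 14.2 after fostamatinib, with SPRY2 as the largest block in each.

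The longest coding transcripts on GRCh37 encode proteins of 319 (SPRY1), 315 (SPRY2), 322 (SPRY4), 444 (SPRED1), 418 (SPRED2) and 454 (SPRED3) residues. Over aligned residues SPRY1 and SPRY2 were 58.9% identical and SPRED1 and SPRED2 58.8%. SPRY4 was 49.5% identical to SPRY1 and 50.2% to SPRY2, and SPRED3 was 38.0% identical to SPRED1 and 37.8% to SPRED2. No stretch of 50 bases was shared between the transcripts of any of the 15 pairs, so a read of that length or longer would match the transcripts of no more than 1 member.

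The genes whose level followed SPRY4 most closely over the 6 libraries, out of 11718 genes averaging 50 reads or more in the higher group, were ZDHHC13, SLC37A3, CNOT11, EDN1 and CENPO (Pearson r 0.998 to 0.999). The coefficient is a description over 6 libraries of 2 treatments, and it exceeded 0.95 for 1393 genes. All 5 were lower after fostamatinib, EDN1, which encodes an endothelin, with a log2 fold change of -1.32 ± 0.14 (SE) and the other 4 with -0.25 to -0.15. In each, fostamatinib library 1 held the highest level of the treated libraries, as it did for SPRY4. Both this order and the direction of their change follow from picking the 5 genes by their correlation with SPRY4.

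Around the family, transcripts induced by ERK were mostly lower. Of 16 such genes 15 were measured and 14 called lower (24.5% of all genes), 9 of them by more than 2-fold (3.29% of all genes), with a median log2 fold change of -1.43. ETV5, ETV1 and ETV4, ETS factors of the PEA3 group, had the largest falls on this list among genes averaging 50 reads or more in DMSO, at -3.76 ± 0.17, -2.91 ± 0.18 and -2.90 ± 0.30 (SE). ETV5 reads numbered 223, 219 and 223 in DMSO and 13, 17 and 15 after fostamatinib. EGR1, the immediate early factor and the 1 measured gene not called, had a log2 fold change of -0.13 ± 0.21 and was named after its value was seen. EPHA4 was not analysed here.

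Of 11 other inhibitors of receptor and ERK signalling, 6 were called lower (24.5% of all genes) and 3 higher (23.3% of all genes), with a median of -0.31. The ERK phosphatase DUSP6 fell by 3.20 ± 0.16 (SE) on the log2 scale, from 231, 202 and 220 reads to 22, 26 and 18, a size close to that of SPRY4. DUSP5, a nuclear ERK phosphatase, fell by 1.03 ± 0.076 and ERRFI1, an EGFR inhibitor, by 0.86 ± 0.036. DUSP4 instead was higher, with 132, 148 and 143 reads in DMSO and 510, 546 and 484 after fostamatinib (1.95 ± 0.081 on the log2 scale). DUSP9 was 2.82-fold higher, and the RAF inhibitor PEBP1 rose by 0.64 ± 0.038 on the log2 scale. Genes that restrain ERK signalling therefore did not all move with the Sprouty and SPRED genes.

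Upstream, 16 of 18 receptors and adaptors were measured, and 10 were called higher (23.3% of all genes) and 3 lower (24.5% of all genes), with a median of 0.21. The FGF19 coreceptor KLB rose by 1.35 ± 0.059 (SE), ERBB3 by 1.06 ± 0.038 and FGFR3 by 0.95 ± 0.040 on the log2 scale. The phosphatase PTPN11 fell by 0.41 ± 0.037, the adaptor SHC1 by 0.28 ± 0.037 and the receptor MET by 0.13 ± 0.041, the last with a limma adjusted p of 0.0085 that became 0.1001 without the variance trend and 0.0766 without fostamatinib library 1. FGFR1 and FGFR2 were not analysed here. Of 12 genes from RAS to ERK, 5 were called higher and 4 lower, beside 23.3% and 24.5% of all genes, with a median of -0.012. The scaffold KSR1 rose by 1.28 ± 0.055, MAPK3, which encodes an ERK, by 0.60 ± 0.065 and BRAF by 0.44 ± 0.062, whereas MAP2K1 fell by 0.30 ± 0.044, NRAS by 0.23 ± 0.048 and SHOC2 by 0.15 ± 0.059. The call of SHOC2 (limma adjusted p = 0.0364) was lost without the variance trend (0.106) and without DMSO library 3 (0.164), fostamatinib library 1 (0.126) or fostamatinib library 3 (0.0804).

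Of 14 partners and modifiers of the Sprouty and SPRED proteins, 6 were called lower and 5 higher, beside 24.5% and 23.3% of all genes, with a median of -0.071. None was called lower or higher by more than 2-fold, which 3.29% and 3.85% of all genes were. EGLN1, a prolyl hydroxylase, fell by 0.42 ± 0.050 (SE), caveolin gene CAV1 by 0.38 ± 0.054 and the ubiquitin ligase SIAH2 by 0.31 ± 0.079 on the log2 scale. The kinases MKNK1 and MKNK2 rose by 0.50 ± 0.062 and 0.37 ± 0.044, and the SPRED partner NBR1 by 0.46 ± 0.043. NF1 and CBL, singled out after their values were seen, were called lower by 0.15 ± 0.046 and 0.18 ± 0.047. Of 9 transcription factors regulated by ERK, 4 were called lower and 1 higher, again beside 24.5% and 23.3% of all genes, with a median of -0.085. ETS1 fell by 1.54 ± 0.061, ELK3 by 0.56 ± 0.078 and SRF by 0.34 ± 0.058, while ETS2 rose by 0.21 ± 0.051. CIC, the repressor whose octamer was searched above, was not called at 0.073 ± 0.057 and was named after its value was seen.

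**Figure D4:**
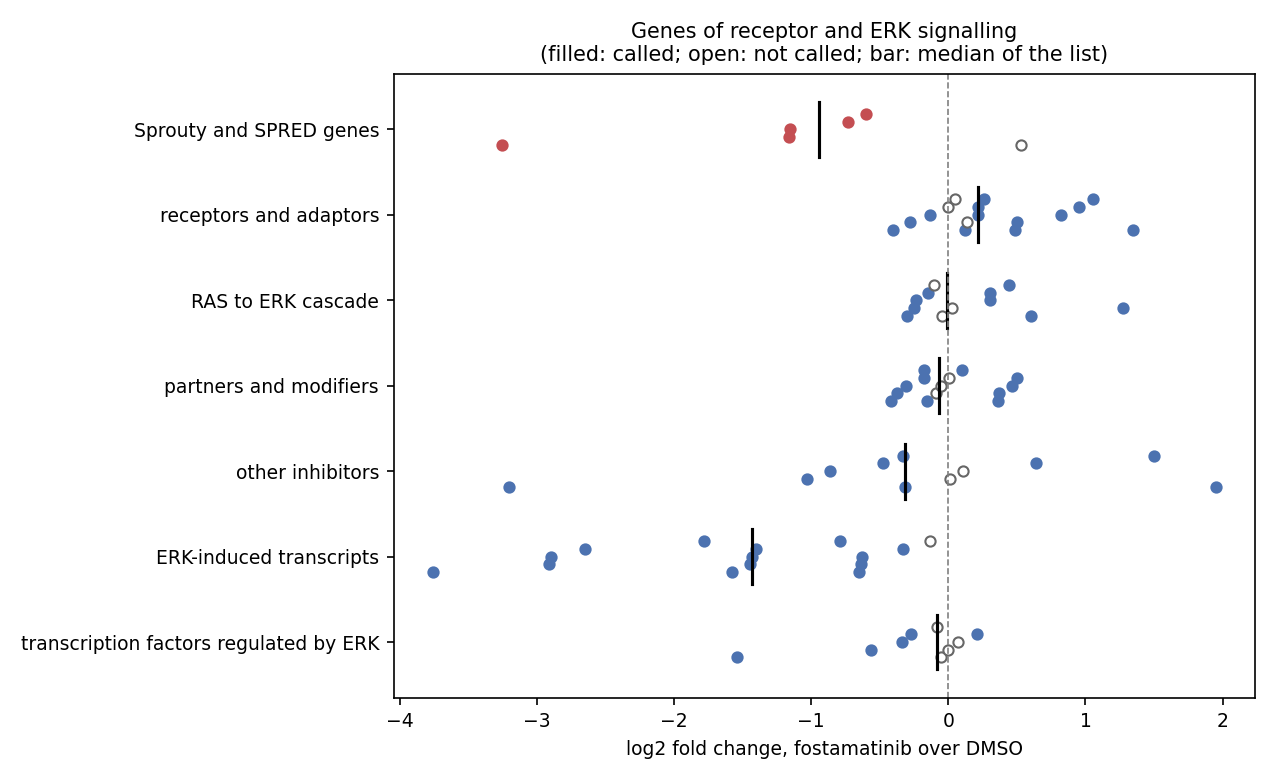
Log2 fold change of fostamatinib over DMSO (horizontal axis) for the Sprouty and SPRED genes and for 6 lists of genes of receptor and ERK signalling (rows), 1 point a gene, filled where called and open where not, with the median of each list as a vertical bar. The medians are -0.94 for the Sprouty and SPRED genes and -1.43 for ERK-induced transcripts, and they lie between -0.31 and 0.21 for the other 5 lists.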

How the data were processed

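Polyadenylated RNA of 6 Huh7SR samples was sequenced with a directional kit. The authors mapped reads to hg19 with HISAT, counted genes with featureCounts and GENCODE annotation, dropped genes under 5 reads in at least 2 samples of each group, and normalised by TMM. The values deposited by the authors are log2 CPM per gene and sample. One gene was listed 7 times with 16311 rows in all, leaving 16305 genes. Every value returned a whole read number within 0.05 once 0.5 reads were taken as added, which gave the depth per library.

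The log2 CPM were fitted with limma 3.58.1 (R 4.3.3) with a mean-variance trend over all genes, treatment as the sole term, and Benjamini-Hochberg adjustment. Two-sided exact permutation tests served single values and member pairs. Exon lengths, overlaps and proteins came from GENCODE on GRCh37 and promoters from RefSeq. Named were all members, overlapping genes, the 3 largest called rises and falls per list with at least 50 mean reads in the higher group and no overlap, and the 5 genes most like the member with the largest change. Members and lists were chosen with earlier results of these data known. Alternatives changed the test, trend, scaling, filter, added reads and block, and left out each library. Scripts were tested on simulated data. Intervals on summed reads cover counting error only.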

Additional observations from a re-analysis of the deposited data

How the results depend on the processing

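Over 14 alternatives, 5 of the 6 Sprouty and SPRED genes were called lower each time, with limma adjusted p no higher than 0.0078, and SPRED3 was not called in the 13 that kept it. Log2 fold changes without 1 library ranged from -3.63 to -3.07 for SPRY4, -1.27 to -1.05 for SPRED1, -1.22 to -1.10 for SPRED2, -0.78 to -0.64 for SPRY1, -0.68 to -0.52 for SPRY2 and 0.31 to 0.82 for SPRED3. Genes called in all numbered 7794, 6382 without the variance trend and 6958 to 7480 without 1 library. SPRED3 and ETV4 did not enter the fit restricted to at least 10 reads in every library, and SPRY4-AS1 entered neither stricter filter. Of the list genes recomputed singly, MET and SHOC2 lost their calls, as given above, and the cause was not tested. The number called ranged over the alternatives from 10 to 13 for receptors and adaptors, 7 to 9 from RAS to ERK, 10 to 12 for partners and modifiers and 12 to 14 for ERK-induced transcripts, so further list genes gained or lost calls or were filtered out, and it was 9 for other inhibitors and 5 for transcription factors throughout. NF1 and CBL were not recomputed singly. Depth limits SPRED3 and SPRY4-AS1 most.

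Deviations of same-numbered libraries correlated at -0.019 to 0.028, and 2 of 6 libraries correlated best with their own number, so the replicate numbers were not taken as pairing. A fit that took these numbers as a replicate block called 7977 genes and again 5 Sprouty and SPRED genes, and it changed no call among the results recomputed.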

Other observations

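SPRY3, the Sprouty gene outside the 6 chosen, was looked up after the values of the others were seen. It had 27, 12 and 11 reads in DMSO and 17, 18 and 14 reads after fostamatinib, and the groups overlapped. Its log2 fold change was 0.17 ± 0.34 (SE; limma adjusted p = 0.710), with a 95% interval of -0.53 to 0.87.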
